A study of Mus musculus with 13 samples.

Results

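Mitochondrial ribosomal proteins were taken as the genes of the deposited count table whose symbol is Mrpl (large subunit) or Mrps (small subunit) followed by a number and, in some cases, a letter. The rule found 77 genes among 32544 gene symbols, 48 of the large and 29 of the small subunit, and all 77 were among the 12496 genes with enough counts to be tested. The libraries came from whole lung of wild-type (WT) C57BL/6J male mice, bought at 7 weeks of age. The Normoxia group holds 7 libraries from mice that breathed 21% oxygen and the Hyperoxia group 6 from mice that breathed 80% oxygen, in both cases for 5 days, after which the lungs were perfused and frozen. The labels name no other treatment for either group. Polyadenylated transcripts were counted from their 3′ ends by Quant-seq. The comparison asks how transcripts of the mitochondrial translation machinery in the lung differ between the oxygen tensions.

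Mitochondria keep a ribosome of their own, the mitoribosome, which translates the few membrane proteins encoded by mitochondrial DNA, all of them subunits of the oxidative phosphorylation (OXPHOS) complexes. Its ribosomal RNAs come from mitochondrial DNA, whereas every one of its proteins is encoded in the nucleus, made in the cytosol and imported. The small subunit reads the messenger RNA, and the large subunit forms the peptide bond and passes the new protein through an exit tunnel that faces the inner membrane. Many mitoribosomal proteins have bacterial relatives and the others were added during mitochondrial evolution, and the parts are assembled with the help of dedicated GTPases, RNA-modifying enzymes and RNA-binding proteins.

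The libraries held 1607111 to 4540288 counts. Hyperoxia 1 stood apart: its log-scale correlation with the other libraries averaged 0.779, against at least 0.886 for each of the other 12. The main counts and medians are therefore given with and without it. As markers of lung, the 4 genes for alveolar type 2 cells (Sftpc, Sftpb, Sftpa1 and Lamp3) summed to between 11949 and 22524 CPM (counts scaled to a common library total, after TMM scaling) in normoxia and to between 3055 and 6614 CPM in hyperoxia, and 3 of the 4 fell. The 3 club cell markers summed to 14428 to 53058 CPM in normoxia and 182 to 9976 CPM in hyperoxia, where the lowest was Hyperoxia 1 and the next 3148 CPM. The 5 markers of cardiac muscle, a tissue rich in mitochondria, summed to 69.8 to 216 CPM in normoxia and 4.83 (Hyperoxia 1) to 276 CPM in hyperoxia, 13.2 to 276 CPM without Hyperoxia 1, with 2 of the 5 called lower in either case, and the 3 brown fat markers to at most 6.73 CPM in any library. The 4 B cell markers all fell, with sums of 110 to 156 CPM in normoxia and 29.2 to 67.6 CPM in hyperoxia, at most 42.8 CPM without Hyperoxia 1. The 4 fibroblast markers, of which 1 rose, summed to 1472 to 2170 CPM and 2032 to 2675 CPM, from 2069 CPM without Hyperoxia 1. The 4 macrophage markers summed to 246 to 291 CPM in normoxia. In hyperoxia their sum was 147 CPM in Hyperoxia 1 and 416 to 632 CPM in the other libraries. Of these 4 markers 1 rose, and 2 rose without Hyperoxia 1. The 4 endothelial markers, of which 1 fell, summed to 2326 to 4469 CPM in normoxia. In hyperoxia their sum ran from 722 CPM (Hyperoxia 1), or 918 CPM without it, to 4334 CPM. Without Hyperoxia 1, 1 endothelial marker rose and 1 fell. In bulk tissue, fewer cells of a type and less RNA per cell cannot be told apart, and the part of cell composition in the results that follow was not tested.

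Among the 77 genes, 24 rose in hyperoxia and none fell at an adjusted p below 0.05 (edgeR quasi-likelihood test, Benjamini-Hochberg adjustment over all genes tested). Of all genes tested, 11.8% rose and 10.8% fell. The large subunit contributed 16 of its 48 genes and the small subunit 8 of its 29. At an unadjusted p below 0.05, 34 members were higher and 1, Mrpl14, was lower. The all-gene count at that threshold is not given here. DESeq2 and limma-voom called 30 and 27 members higher and none lower. Over all genes DESeq2 called 1794 higher and 1628 lower of 15638, and limma-voom 1374 higher and 1496 lower of 12496. The median log2 fold change was 0.34 over the large and 0.32 over the small subunit, with -0.03 over all genes tested. Values above 0 were found for 37 of the 48 large subunit genes and 25 of the 29 small subunit genes, or 80.5% of the members against 47.8% of all genes tested. Without Hyperoxia 1 these shares were 83.1% and 49.4%.

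**Figure D1:**
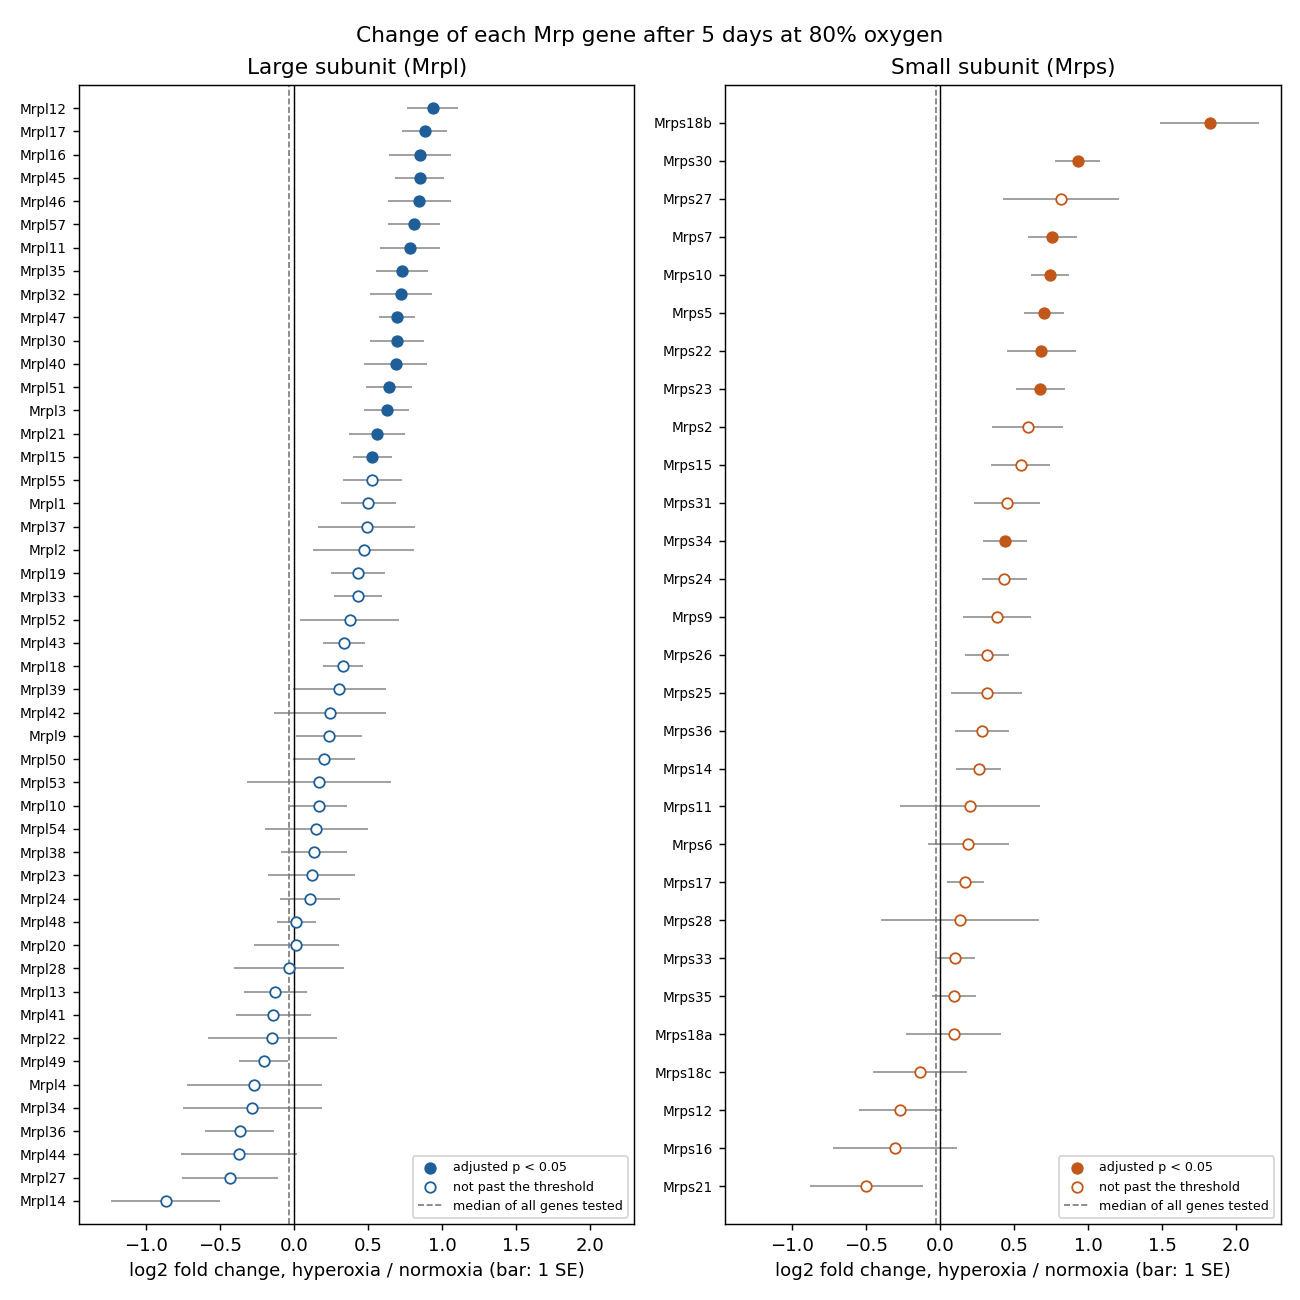
Log2 fold change (x axis, hyperoxia over normoxia, 13 libraries) of each of the 48 Mrpl genes (left) and 29 Mrps genes (right), ordered by value, with bars of 1 SE. Filled points passed an adjusted p below 0.05, and all 24 of them lie to the right of 0, between 0.44 (Mrps34) and 1.82 (Mrps18b).

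The letters that open the libraries' names in the labels fall into a set from B to M (5 normoxic and 3 hyperoxic libraries) and a set from O to S (2 and 3). The labels do not say what the letters stand for. Within the first set the median log2 fold change was 0.40 for the large and 0.48 for the small subunit, and within the second 0.51 and 0.57. All 24 genes had values above 0 in both sets, as did 48 of the 77 members. The 24 were called from these same libraries, so that their sign within the sets was largely fixed by that choice. The share of all genes above 0 in both sets is not given here. A test of the difference between the sets (edgeR interaction term) passed at an adjusted p below 0.05 for 0 members and 0 of all genes, with 3 members (Mrpl35, Mrpl28 and Mrpl4) and 1158 genes at an unadjusted p below 0.05.

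Summed over each subunit, the groups did not overlap. The 48 large subunit genes summed to 1691 CPM at the lowest, 1852 at the median and 2043 at the highest in normoxia, and to 2330, 2411 and 2846 CPM in hyperoxia. The 29 small subunit genes summed to 996, 1103 and 1214 CPM in normoxia and to 1293, 1415 and 1508 CPM in hyperoxia. The lowest hyperoxic library thus lay above the highest normoxic one for both subunits, and the highest in each case was Hyperoxia 1. Group means were 33.7% higher in hyperoxia for the large and 28.4% higher for the small subunit, and 29.8% and 26.7% higher without Hyperoxia 1.

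The balance between the subunits moved less. The large subunit's summed CPM was 1.68 ± 0.0227 times that of the small subunit in normoxia (SD, n = 7) and 1.75 ± 0.0894 times in hyperoxia (SD, n = 6). The ratios overlapped, running from 1.64 to 1.71 in normoxia and from 1.64 to 1.89 in hyperoxia, and the highest was again that of Hyperoxia 1. The overlap came from Hyperoxia 3 alone (1.639). The next lowest hyperoxic ratio, 1.7123 in Hyperoxia 2, lay just above the highest normoxic one, 1.7115 in Normoxia 7. Without that library the hyperoxic mean was 1.72 ± 0.0653 (SD, n = 5). Measured instead as the difference of mean log2 CPM, which gives every gene the same weight, the large subunit was lower relative to the small one in hyperoxia, by -0.082, where the log2 ratio of sums was 0.06 higher (0.035 without Hyperoxia 1). The sign of the change in balance therefore depended on the measure.

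**Figure D2:**
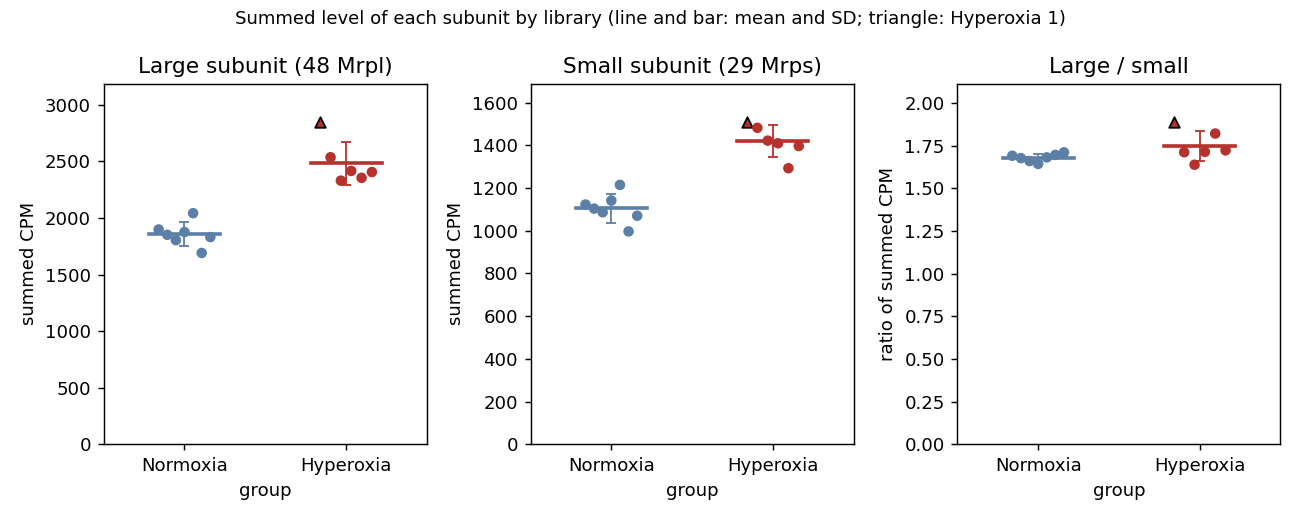
Summed CPM of the 48 Mrpl genes (left), of the 29 Mrps genes (middle) and their ratio (right) in each of 7 normoxic and 6 hyperoxic libraries. Horizontal lines and bars give the group mean and SD and triangles Hyperoxia 1. Both sums separate the groups (at most 2043 against at least 2330 CPM for Mrpl). The ratios overlap through Hyperoxia 3 alone (1.639), and the next lowest hyperoxic ratio (1.7123) lies just above the highest normoxic one (1.7115).

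In the large subunit, the 5 genes with the smallest adjusted p were Mrpl17, Mrpl47, Mrpl12, Mrpl45 and Mrpl57, and in each of them every hyperoxic library lay above every normoxic one. Mrpl17, which codes for a protein close to the mouth of the exit tunnel, measured 61.8 CPM at the lowest, 73.2 at the median and 82.1 at the highest in normoxia, and 94.2, 129 and 190 CPM in hyperoxia. Its log2 fold change was 0.88 ± 0.15 (SE, edgeR adjusted p 0.000608). Mrpl47, the relative of a bacterial protein at the tunnel exit, ran from 77.2 through 82.7 to 91.9 CPM in normoxia and from 115 through 134 to 169 CPM in hyperoxia, so that it rose by 0.70 ± 0.12 on the log2 scale (SE, edgeR adjusted p 0.000717). For both genes the gap between the groups was over 10 CPM wide.

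Mrpl12 codes for the protein of the flexible stalk that contacts translation factors, and it also binds the mitochondrial RNA polymerase. It measured 47 CPM at the lowest, 53.9 at the median and 66.1 at the highest in normoxia, against 81.6, 95.7 and 172 CPM in hyperoxia, with a log2 fold change of 0.94 ± 0.17 (SE, edgeR adjusted p 0.000987). Mrpl45, which anchors the exit of the tunnel to the inner membrane, measured 34.7, 41.9 and 50.2 CPM in normoxia and 61.5, 69.5 and 119 CPM in hyperoxia (log2 fold change 0.85 ± 0.17 (SE), edgeR adjusted p 0.00173). Mrpl57, a small protein with no bacterial relative, measured 42.1, 51.9 and 75.4 CPM in normoxia and 79, 91.1 and 129 CPM in hyperoxia (log2 fold change 0.81 ± 0.18 (SE), edgeR adjusted p 0.00383). The highest value of all 5 genes came from Hyperoxia 1, and without that library they kept their calls, with log2 fold changes of 0.78 for Mrpl17, 0.64 for Mrpl47, 0.77 for Mrpl12, 0.70 for Mrpl45 and 0.74 for Mrpl57.

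The other 11 large subunit genes that rose did so by 0.53 to 0.85 on the log2 scale. Among proteins with bacterial relatives they were Mrpl16 (0.85) and Mrpl11 (0.79), the latter at the base of the stalk, together with Mrpl35 (0.73), Mrpl32 (0.72), Mrpl30 (0.70), Mrpl3 (0.63), Mrpl21 (0.56) and Mrpl15 (0.53). Mrpl32 is the subunit that a protease of the inner membrane must cut before it joins the ribosome. Among proteins particular to mitochondria they were Mrpl46 (0.85) and Mrpl40 (0.69), both of the central protuberance on top of the subunit, and Mrpl51 (0.64). The call of Mrpl21 was lost in 7 of the 13 fits that each leave out 1 library (without Normoxia 1, 2, 3 or 4 or Hyperoxia 2, 5 or 6, edgeR adjusted p 0.011 to 0.0918 over all 13) and that of Mrpl40 in 4 (without Normoxia 1, 3 or 7 or Hyperoxia 3, edgeR adjusted p 0.013 to 0.0567). Mrpl10, which carries the Mrpl12 copies of the stalk, was at 0.17 ± 0.19 (SE), a neighbour in the structure named after its value was seen.

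**Figure D3:**
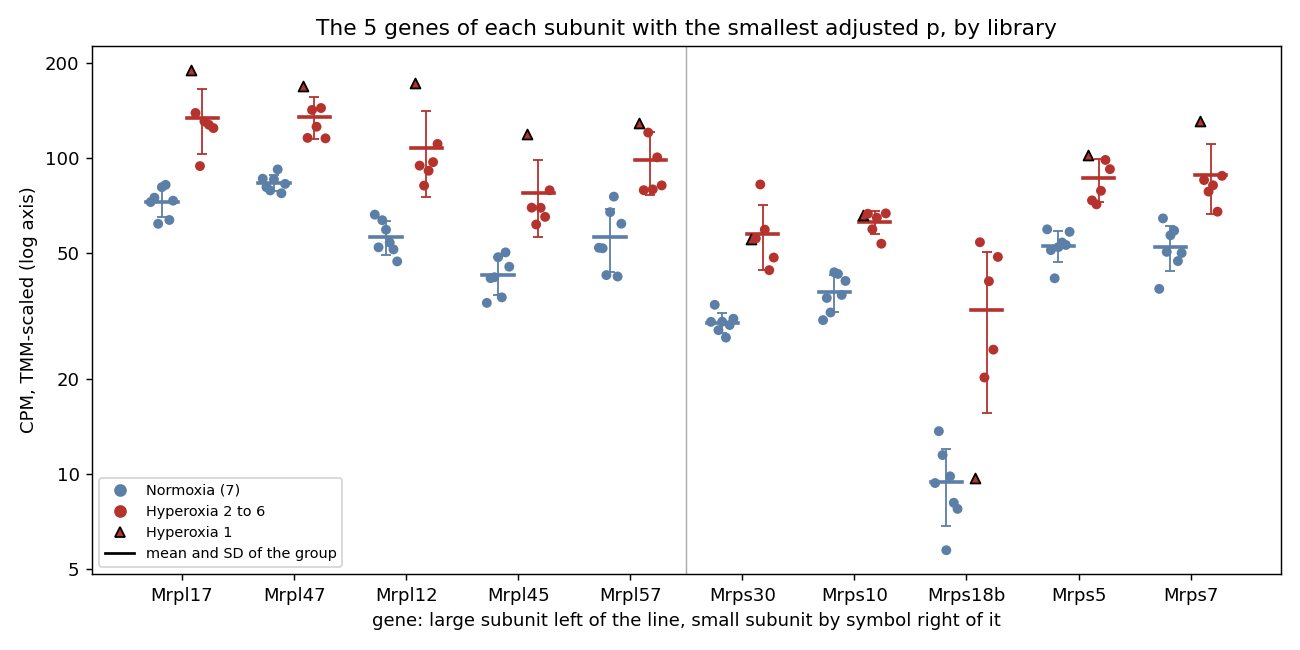
TMM-scaled CPM (log axis) of the 5 genes of each subunit with the smallest adjusted p, in 7 normoxic and 6 hyperoxic libraries, with group mean and SD. The groups are apart in 9 of the 10 genes. In Mrps18b, Hyperoxia 1 (triangle) lies at 9.65 CPM among the normoxic libraries.

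Among genes with the small subunit's prefix, the smallest adjusted p belonged to Mrps30, Mrps10, Mrps18b, Mrps5 and Mrps7. Mrps30 measured 27 CPM at the lowest, 30.2 at the median and 34.2 at the highest in normoxia, and 44.1, 55.4 and 82.3 CPM in hyperoxia. Its log2 fold change of 0.93 ± 0.15 (SE) had the smallest adjusted p of all 77 genes (edgeR, 0.00042). The groups did not overlap, and the highest hyperoxic value came from Hyperoxia 3 rather than Hyperoxia 1.

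Mrps10 and Mrps7 code for proteins of the head of the small subunit, through which the messenger RNA passes. Mrps10 measured 30.6, 36.8 and 43.4 CPM in normoxia and 53.5, 65.3 and 66.7 CPM in hyperoxia, with a log2 fold change of 0.74 ± 0.13 (SE, edgeR adjusted p 0.000717). Mrps7 measured 38.5, 50.4 and 64.3 CPM in normoxia and 67.5, 83.4 and 131 CPM in hyperoxia, with a log2 fold change of 0.76 ± 0.17 (SE, edgeR adjusted p 0.00368). Mrps5, of the subunit's body, measured 41.5, 53 and 59.4 CPM in normoxia and 71.2, 85.3 and 102 CPM in hyperoxia (log2 fold change 0.70 ± 0.13 (SE), edgeR adjusted p 0.00145). None of the 3 genes overlapped between the groups. The remaining calls of the small subunit were Mrps22 (0.69), Mrps23 (0.68) and Mrps34 (0.44), all coding for proteins that bacteria lack. The call of Mrps22 was lost in 10 of the 13 fits that each leave out 1 library, all but those without Normoxia 6, Hyperoxia 1 or Hyperoxia 5, with edgeR adjusted p of 0.00806 to 0.0793. That of Mrps34 was lost in 9, all but those without Normoxia 4 or Hyperoxia 1, 3 or 6 (edgeR adjusted p 0.0188 to 0.0778). Mrps24, just outside the threshold, was at 0.43 ± 0.15 (SE, edgeR adjusted p 0.0538).

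Mrps18b had the largest change of any member. It measured 5.72 CPM at the lowest, 9.33 at the median and 13.6 at the highest in normoxia, and 9.65, 32.7 and 54 CPM in hyperoxia. In Hyperoxia 2 to 6 it lay between 20.2 and 54 CPM, all above normoxia, whereas Hyperoxia 1 lay within the normoxic range. Its log2 fold change was 1.82 ± 0.34 (SE, edgeR adjusted p 0.00109) with all libraries and 2.02 without Hyperoxia 1.

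Mammals have 3 genes for relatives of a single bacterial small subunit protein, Mrps18a, Mrps18b and Mrps18c, and their products sit in different places of the mitoribosome, that of Mrps18a in the large subunit. Mrps18a measured 6.97, 10.8 and 13.1 CPM (lowest, median and highest) in normoxia and 4.17, 10.9 and 17 CPM in hyperoxia, with a log2 fold change of 0.09 ± 0.32 (SE, edgeR adjusted p 0.872). Mrps18c measured 24.9, 37.4 and 45.2 CPM in normoxia and 5.36, 33.2 and 51 CPM in hyperoxia, with a log2 fold change of -0.14 ± 0.32 (SE, edgeR adjusted p 0.802). Their groups overlapped widely, unlike those of Mrps18b. No test of the difference between the 3 genes was made.

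The symbols also misplace other proteins. The product of Mrps30 lies in the large subunit, and that of Mrps36 belongs to the 2-oxoglutarate dehydrogenase complex of the citric acid cycle. Mrps36 measured 21.7, 27.1 and 41 CPM in normoxia and 30.6, 34.6 and 42.4 CPM in hyperoxia, with a log2 fold change of 0.28 ± 0.18 (SE, edgeR adjusted p 0.287). Grouped by place, 17 of 50 large subunit genes and 7 of 26 small subunit genes rose, with medians of 0.34 and 0.35. Without Hyperoxia 1 these were 22 of 50 and 8 of 26, with medians of 0.44 and 0.39, so that the order of the medians turned. Proteins that stand in the place of a bacterial counterpart, Mrps18c among them, contributed 14 of 46 genes (30.4%, median 0.36) and the other proteins 10 of 30 (33.3%, median 0.33). With Mrps18a and Mrps18b counted beside Mrps18c by kinship, the counts were 15 of 48 and 9 of 28. Without Hyperoxia 1 the first grouping gave 17 of 46 (37.0%, median 0.39) and 13 of 30 (43.3%, median 0.46), again with the order of the medians turned. The difference between these classes was not tested.

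Of the 77 genes, 12 (15.6%) had all 6 hyperoxic libraries above all 7 normoxic ones, and none had them all below. Over all genes tested the share above was 5.6%. The share of all genes below is not given here, so the absence of members below has no value beside it. They were 8 of the large subunit, namely the 5 genes described above, Mrpl3, Mrpl15 and Mrpl16, and 4 of the small subunit, Mrps30, Mrps10, Mrps5 and Mrps7. Without Hyperoxia 1 the genes whose groups did not overlap were 16 (20.8%), with Mrpl32, Mrpl52, Mrps18b and Mrps22 in addition, against 8.24% of all genes.

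Promoter stretches are shown for the genes that rose, that carry a motif within 120 bases before the RefSeq start site and whose stretch reaches at most 30 bases into the gene as GENCODE M21 annotates it. Mrpl32, with NRF1 motifs, and Mrpl51, with an ETS motif, also rose and carry one there, but their stretches lie further inside the annotated genes and are not shown. Mrps22 is the one shown whose call was lost in most of the fits without 1 library. The motifs searched on both strands in the 300 bases around the start, 250 before and 50 after, were GCGCATGC (nuclear respiratory factor 1, NRF1), CCGGAAGT (ETS factors such as GABP), AAGATGGC (YY1), CACGTG (E-box) and TTGCATCA (ATF4 with a C/EBP partner). NRF1 and GABP are known as activators of nuclear genes for mitochondrial proteins. The sequences below are from RefSeq on GRCm38.p6, each written 5′ to 3′ on the strand of its gene and ending at the base before the start, with the motif in capitals. Mrpl17 is from chr7:105811088-105811207 (minus strand), Mrps22 from chr9:98601680-98601799 (minus strand) and Mrpl3 from chr9:105053148-105053267 (plus strand). The last 12 bases of the Mrpl17 stretch and the last 29 of the Mrpl3 stretch lie inside the gene as GENCODE M21 annotates it.
Mrpl17: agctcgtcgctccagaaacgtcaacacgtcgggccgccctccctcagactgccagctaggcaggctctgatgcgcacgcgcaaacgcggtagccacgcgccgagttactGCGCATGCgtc
Mrps22: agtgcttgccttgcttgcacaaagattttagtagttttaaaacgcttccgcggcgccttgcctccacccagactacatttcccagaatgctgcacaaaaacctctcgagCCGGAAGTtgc
Mrpl3: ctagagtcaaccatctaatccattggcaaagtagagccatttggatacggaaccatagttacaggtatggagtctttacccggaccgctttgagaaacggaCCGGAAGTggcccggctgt

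The NRF1 motif of Mrpl17 and the ETS motif of Mrps22 both begin 11 bases before the start, and the ETS motif of Mrpl3 begins 19 bases before it. Promoters were found for 68 of the 77 members and for 27025 gene symbols in all. The NRF1 motif was present in 8 of the 68 (11.8%), against 3.05% of all promoters, the ETS motif in 12 (17.6%, against 4.31%) and the YY1 motif in 12 (17.6%, against 3.19%). In the bases before the start alone, the YY1 motif was in 5.88% of the members and 1.83% of all. At least 1 of these 3 motifs was found in 29 of the 68 (42.6%) and in 9.91% of all. The 27025 symbols include genes with too few counts to be tested here, whereas all members were tested. The E-box was found in 7.35% of the members and 8.09% of all, and TTGCATCA in 0 of the 68 and in 1.03% of all.

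Each of the NRF1, ETS and YY1 motifs was found in 3 of the 22 genes that rose and have a promoter sequence. In the 46 others they were found in 5, 9 and 9, and the difference was not tested. The median GC content of the members' promoter windows was 58.2% and that of all promoters 52.7%, a difference that bears on GC-rich motifs. A match of letters is not a binding site, and binding was not measured.

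Of the members, 18 (23.4%) have a protein-coding gene on the opposite strand that starts within 1000 bases upstream of their own start and points the other way, against 9.62% of the protein-coding genes tested. Pairs that overlap at their starts, such as Mrpl46 and Mrps11, are not counted. The pairs are, for example, Mrps18b with Ppp1r10, Mrpl32 with Psma2 and Mrpl49 with Fau. Of the partners, 13 were tested, and their log2 fold changes ran from -1.24 (Klc4, beside Mrpl2) to 0.50 (Ppp1r10), with the smallest edgeR adjusted p at 0.0557 (Fau). For Mrps18b, which rose by 1.82, the partner's value was thus 0.50.

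Some members overlap other genes. In GENCODE M21 (GRCm38), 35 of the 77 overlap a gene on the opposite strand, among them 13 of the 24 that rose, and 13 overlap a gene on the same strand. An annotated exon overlaps one of the other gene in 27 of the 35, among them 9 of the 24 that rose, and in 8 of the 13. Mrpl47 (chr3:32725397-32737605) overlaps Ndufb5 and Actl6a, Mrps7 (chr11:115603925-115608036) overlaps Gga3 and Mif4gd, and Mrps34 (chr17:24895116-24897502) overlaps Nme3 on its own strand, in exons in each case. No source used here says that strand was used in counting, and how far reads from the shared stretches went to the other gene was not tested. Mrpl23 has an annotated pseudogene copy, Mrpl23-ps1, to which counts were also assigned (a median of 33.6 CPM in normoxia), so that the values of Mrpl23 are uncertain.

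The genes with the lowest log2 fold changes were Mrpl14 and Mrpl27 in the large and Mrps21 and Mrps16 in the small subunit. Mrpl14, at the face that meets the small subunit, measured 25.1, 47.2 and 51.2 CPM (lowest, median and highest) in normoxia and 2.68, 23.7 and 38.9 CPM in hyperoxia, with a log2 fold change of -0.87 ± 0.37 (SE, edgeR adjusted p 0.103). Mrpl27 measured 22, 25.6 and 46.6 CPM in normoxia and 3.75, 23.6 and 32.1 CPM in hyperoxia (log2 fold change -0.43 ± 0.32 (SE), edgeR adjusted p 0.373). In both genes the groups overlapped and Hyperoxia 1 was the lowest library. Without it Mrpl14 was at -0.63 (edgeR adjusted p 0.058) and Mrpl27 at -0.21 (edgeR adjusted p 0.476).

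Mrps21 measured 24.8, 44.7 and 57.6 CPM in normoxia and 3.22, 35.7 and 52.9 CPM in hyperoxia (log2 fold change -0.50 ± 0.38 (SE), edgeR adjusted p 0.384). Mrps16 measured 7.4, 12.9 and 15.7 CPM in normoxia and 0.536, 9.03 and 16.2 CPM in hyperoxia (log2 fold change -0.30 ± 0.42 (SE), edgeR adjusted p 0.647). In both genes the groups overlapped, and the lowest values were again those of Hyperoxia 1. Without it Mrps21 was at -0.26 (edgeR adjusted p 0.443) and Mrps16 at -0.07 (edgeR adjusted p 0.882).

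The members with the most counts in each subunit, and so with the smallest counting error, were Mrpl51 and Mrpl48, and Mrps25 and Mrps26. Their CPM are not divided by length and are not a ranking of transcript levels. Mrpl51 measured 106, 121 and 150 CPM in normoxia and 148, 182 and 293 CPM in hyperoxia and rose (log2 fold change 0.64 ± 0.16 (SE), edgeR adjusted p 0.0075). Mrpl48, of the central protuberance, measured 110, 121 and 149 CPM in normoxia and 105, 128 and 153 CPM in hyperoxia, with a log2 fold change of 0.02 ± 0.13 (SE), a 95% interval of -0.24 to 0.27. The interval of Mrpl48 lies below the estimate for Mrpl51. No test of the difference between the 2 genes was made.

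Mrps25 measured 97.8, 112 and 116 CPM in normoxia and 95.2, 105 and 296 CPM in hyperoxia. The 296 CPM were those of Hyperoxia 1, and without it the log2 fold change went from 0.31 to -0.05 (edgeR adjusted p 0.378 and 0.787). Mrps26 measured 86.4, 99.6 and 123 CPM in normoxia and 102, 127 and 163 CPM in hyperoxia, with a log2 fold change of 0.32 ± 0.15 (SE, edgeR adjusted p 0.136) that passed the threshold without Hyperoxia 1 (0.39, edgeR adjusted p 0.0408).

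Hyperoxia 1 departed from the other hyperoxic libraries in both directions. It held the lowest value of its group for 36 of the 77 members and the highest for 27. These make 81.8% of the members, where it was at an extreme for 68.4% of all genes tested. No count at all was recorded there for Mrpl22, Mrpl34, Mrpl53, Mrps11 and Mrps28, although the other 5 hyperoxic libraries had medians of 9.73 (Mrps11) to 20.2 CPM (Mrps28). Counts of 3 or fewer, up to 1.61 CPM in this library, were also found for Mrpl44 and Mrps16. At the other end, Mrps25 was 2.83 times the median of the other 5 libraries, Mrpl24 2.40 times and Mrpl16 2.24 times.

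As a measure of this scatter, the SD over members of the log2 difference from the median of the other libraries of the group was 1.49 in Hyperoxia 1 and 0.26 to 0.57 in the other 12 libraries. Over all genes tested the same SD was 1.37 in Hyperoxia 1 and 0.39 to 0.74 in the others. The Spearman correlation across the 77 genes between that difference and the median length of the gene's transcripts was 0.37 in Hyperoxia 1, and with GC content -0.26, within the range of the other 12 libraries. There the correlation with length ran from -0.36 (Hyperoxia 2) to 0.46 (Hyperoxia 3) and that with GC content from -0.52 (Normoxia 6) to 0.45 (Hyperoxia 2). Across all genes with these properties the values in Hyperoxia 1 were 0.18 and -0.09. Across the members the log2 fold change correlated with length at 0.38, and at 0.30 without Hyperoxia 1, against -0.01 and -0.05 across all genes with a length. Genes are not independent replicates, and they share libraries, so these values are descriptions.

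The members are short. Their transcripts had a median of 1047 bases and those of all genes tested 2247 bases (1257 for the genes that rose and 955 for the other members). With length and GC content corrected in every library, 22 members rose and 1, Mrpl14, fell (log2 fold change -0.81, edgeR adjusted p 0.0334). Of all 12496 genes, 1483 rose and 1427 fell in that fit. Of the 24 genes that rose without the correction 20 were among the 22. Mrpl21, Mrpl32, Mrps22 and Mrps34 no longer passed (edgeR adjusted p 0.0544, 0.065, 0.057 and 0.0727), and Mrpl33 and Mrps15 did (0.0195 and 0.0491). The median over the members was 0.34 with the correction and 0.33 without.

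Leaving out Hyperoxia 1 raised the number of members called. It was then 30 of 77, with 15.2% of all genes higher, and the 30 held all of the 24 together with Mrpl1, Mrpl18, Mrpl33, Mrpl39, Mrpl52 and Mrps26. The large subunit had 21 calls and a median of 0.44, the small subunit 9 calls and a median of 0.39. Mrpl52 showed this most clearly, with 24.2 to 45.8 CPM in normoxia, 5.9 CPM in Hyperoxia 1 and 46 to 63 CPM in Hyperoxia 2 to 6. Its log2 fold change went from 0.38 (edgeR adjusted p 0.459) to 0.62 (edgeR adjusted p 0.00557). No member was called lower in either fit.

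**Figure D4:**
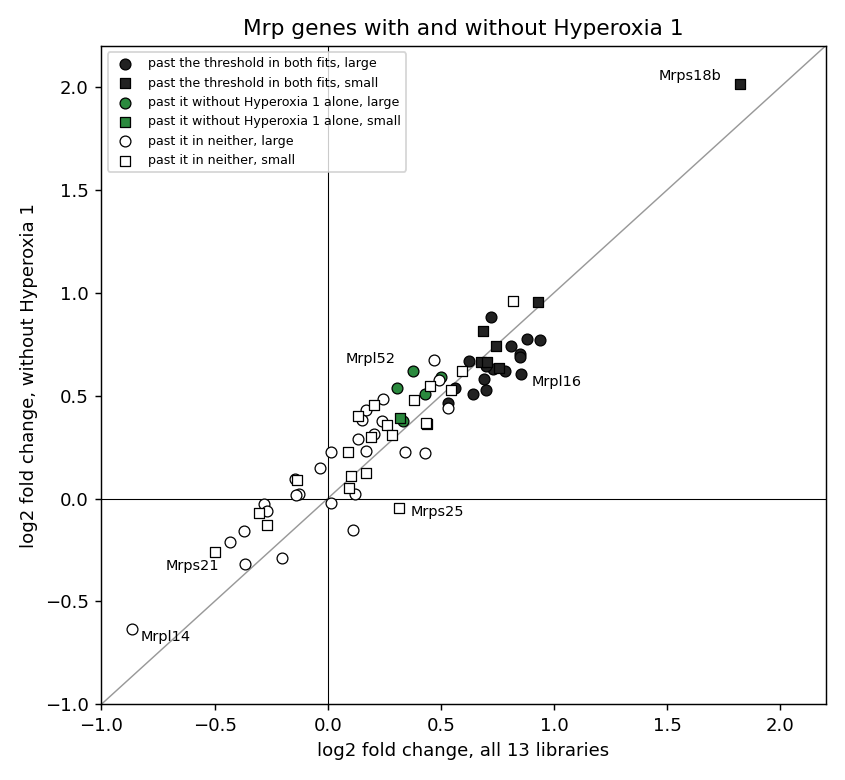
Log2 fold change of each member with all 13 libraries (x axis) and without Hyperoxia 1 (y axis), with circles for Mrpl and squares for Mrps genes and the line of equality. The 24 genes called in both fits (black) lie at 0.44 to 1.82 on the x axis, 6 more (green) are called only on the y axis, and Mrps25 moves from 0.31 to -0.05.

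Of the 6 mitoribosomal proteins with other names, 2 rose. Gadd45gip1, of the large subunit, measured 40.9, 58.6 and 74.1 CPM in normoxia and 71.2, 79.8 and 173 CPM in hyperoxia (log2 fold change 0.69, edgeR adjusted p 0.0295). The 173 CPM were those of Hyperoxia 1, and without it Gadd45gip1 was at 0.44 (edgeR adjusted p 0.0321). Dap3, the GTP-binding protein of the small subunit, was at 0.61 (edgeR adjusted p 0.0456), and at 0.38 without Hyperoxia 1, no longer past the threshold (edgeR adjusted p 0.0594). The other 4 were Ict1 (0.53, and 0.23 without Hyperoxia 1), Chchd1 (0.52), Aurkaip1 (0.20) and Ptcd3 (-0.18). Without Hyperoxia 1 the count was again 2 of 6, with Chchd1 past the threshold (0.76, edgeR adjusted p 0.00979) and Dap3 not.

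Of 30 genes for mitoribosome assembly and ribosomal RNA modification, 23 were tested, 4 rose and none fell, with a median of -0.03. The share that rose was 17.4%, beside 11.8% of all genes tested. Malsu1, which binds the product of Mrpl14 and keeps an unfinished large subunit from joining the small one, measured 26.2, 34.8 and 51.1 CPM in normoxia and 54.9, 62.6 and 72.2 CPM in hyperoxia, with no overlap (log2 fold change 0.79, edgeR adjusted p 0.00188). Fastkd2, an RNA-binding protein needed for the large subunit's ribosomal RNA, rose by 1.03 (edgeR adjusted p 0.00229), C1qbp, a matrix protein that binds RNA, by 0.81 (edgeR adjusted p 0.00418) and Trub2, a pseudouridine synthase, by 0.78 (edgeR adjusted p 0.0344). The other 19, which include the GTPases Mtg1 (0.36), Mtg2 (-0.22) and Noa1 (-0.40), did not pass. Without Hyperoxia 1, 4 rose (16.7%, beside 15.2% of all genes) and 2 fell (Mettl17, -0.84, and Mterf4, -0.58), and the median was 0.13, on the other side of 0.

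Of 12 mitochondrial translation factors tested, 0 passed the threshold in edgeR, with 3 higher (Mtif3, Gfm1 and Mrrf) at an unadjusted p below 0.05, 1 higher in DESeq2 and 1 in limma-voom, and a median of 0.13. Without Hyperoxia 1 edgeR called 1 higher, the elongation factor Gfm1 (0.56, edgeR adjusted p 0.0252). Among 27 genes of mitochondrial transcription and RNA handling, the coactivators Ppargc1a and Pprc1 rose (7.41%, beside 11.8% of all genes tested) and the DNA polymerase Polg fell. Ppargc1a, known as a driver of mitochondrial biogenesis together with NRF1, measured 12.3, 18.2 and 24.5 CPM in normoxia and 29.3, 40.4 and 46.6 CPM in hyperoxia, with no overlap (log2 fold change 1.08, edgeR adjusted p 0.000556). Pprc1 was at 0.83 (edgeR adjusted p 0.0439). Polg, which copies mitochondrial DNA, measured 51.7, 60.5 and 68 CPM in normoxia and 40.7, 42.7 and 49.8 CPM in hyperoxia, also with no overlap (log2 fold change -0.45, edgeR adjusted p 0.013). Among factors whose motifs were searched or that pair with Ppargc1a, Nrf1 was at 0.14, Gabpa at -0.07 and Esrra at -0.48 (edgeR adjusted p 0.517, 0.837 and 0.344), and none of these 3 passed without Hyperoxia 1 (0.21, -0.00045 and -0.44). Gabpb1, which like Gabpa codes for a subunit of GABP, was at 0.52 (edgeR adjusted p 0.0643) and passed without Hyperoxia 1. Yy1 and Atf4 are not reported here. Without Hyperoxia 1, 5 of 28 genes rose (17.9%, beside 15.2% of all genes) and 1 fell, with Trmt10c (0.87), Supv3l1 (0.77) and Gabpb1 (0.65) in addition among those that rose (edgeR adjusted p 0.00893, 0.0231 and 0.00753).

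The protein-coding genes of mitochondrial DNA, whose transcripts the mitoribosome translates, were 13 in number and 0 of them passed the threshold in edgeR, DESeq2 or limma-voom, nor at an unadjusted p below 0.05 in edgeR. Their median log2 fold change was -0.32, with 11 of the 13 below 0. Their summed level ran from 21890 to 30613 CPM in normoxia. In hyperoxia it was 10267 CPM in Hyperoxia 1 and from 21416 to 27325 CPM in the other 5 libraries. Without Hyperoxia 1 the median log2 fold change was -0.22, with 9 of the 13 below 0.

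The nuclear OXPHOS subunits, the partners of these proteins in the complexes, had 15 of 81 genes higher and 1 lower (Cox4i2, -0.80), with a median of 0.08. Without Hyperoxia 1 they had 24 higher, with a median of 0.26, and Cox4i2 no longer passed the threshold (-0.77, edgeR adjusted p 0.0571). The 6 with the smallest adjusted p were Cox6a2 (1.87), Ndufa10 (0.75), Uqcrq (0.76), Ndufa12 (0.83), Atp5b (0.76) and Ndufa9 (0.63). Cytosolic ribosomal proteins had 12 of 79 genes higher and 1 lower (Rps21, -0.63), with a median of 0.12. Without Hyperoxia 1 they had 17 higher and 1 lower, with a median of 0.18. The 6 with the smallest adjusted p were Rpl12 (1.15), Rps27l (1.69), Rpsa (1.03), Rplp0 (1.02), Rpl23 (0.73) and Rpl5 (0.54). The share of genes that rose was thus 31.2% of the Mrp genes, 18.5% of the OXPHOS subunits and 15.2% of the cytosolic ribosomal proteins, beside 11.8% of all genes tested. Without Hyperoxia 1 these shares were 39.0%, 29.6% and 21.5%, beside 15.2%. The differences between the lists were not tested.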

How the data were processed

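Quant-seq libraries (Lexogen 3′ kit) of mouse lung were analysed, 7 from normoxia and 6 from hyperoxia. Reads had been pseudoaligned with kallisto (BioJupies), and the authors deposited whole-number counts per gene symbol. They also deposited log10 values, which equal log10 of CPM plus 1 computed from the counts. The submitters' processing notes name the mm10 build, which is GRCm38, and limma 3.54.2. Whether counting used strand is not given in the sources used here.

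Groups were taken from the sample titles. The labels do not say that each library is a separate mouse, so that p-values measure only the spread between these samples, which may be technical. Genes were tested with edgeR 4.0.16 (TMM scaling, filterByExpr with a minimum count of 10, glmQLFit and glmQLFTest) in R 4.3.3 over 12496 genes, without covariates and with Benjamini-Hochberg adjustment. CPM values are TMM-scaled, and 3′ counts are not divided by length, so that they do not rank the levels of different genes. The SE of a log2 fold change is its size divided by the square root of F. Totals of 1607111 to 4540288 counts per library make 3 counts worth at most 1.84 CPM. Counts carry no molecular identifiers, so floors cover counting error only.

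The members and all lists were chosen with earlier results of these data known. Named with the log2 fold change were all members called. Named with values by library were the 5 members of each subunit with the smallest adjusted p, the 2 with the lowest log2 fold change, the 2 with the highest mean CPM and 5 whose place differs from their symbol or is one of several. From the related lists, up to 6 called genes were named by adjusted p. Other genes were named as examples after their values were seen. Alternatives were DESeq2 1.42.0, limma-voom and limma 3.58.1 on the deposited log10 values (as log2), scaling by library size alone, other filters, a replicate block, the letter set fitted or taken alone, each library left out, subunits by place, and, added after the data were seen, a length and GC correction (11884 genes with values, splines of 5 terms) and another class for Mrps18a and Mrps18b. Positions are from GENCODE M21 (GRCm38) and promoters from RefSeq (GRCm38.p6), matched by symbol.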

Additional observations from a re-analysis of the deposited data

Results flagged for a closer look

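Among the 38 values examined in each group (total count, both subunit sums, their ratio and 34 named genes), 9 had a library far from the others of its group by Dixon's criterion, where chance gives about 4 in the 76 groups. Of the 9, 8 were high values in Hyperoxia 1. They were 172 CPM for Mrpl12, 97 CPM for Mrpl15, 92.7 CPM for Mrpl16, 162 CPM for Mrpl30, 119 CPM for Mrpl45, 293 CPM for Mrpl51, 296 CPM for Mrps25 and 131 CPM for Mrps7. The first 5, Mrpl51 and Mrps7 were called with and without this library, and Mrps25 in neither case. The remaining one was the total of Normoxia 5, which at 1607111 counts was the lowest of its group. Without Normoxia 5 the number of members called was again 24, of which 22 were the same genes. Mrps22 and Mrps34 were no longer called (edgeR adjusted p 0.0653 and 0.0554), and Mrpl33 and Mrpl55 were (edgeR adjusted p 0.0402 and 0.0411).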

How the results depend on the processing

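All 24 genes that rose kept their direction under every alternative in which they were tested, in fits that share the libraries that gave the calls. The number of members called higher was 19 to 30 under DESeq2, limma-voom, limma on the deposited values, library size alone, other filters, a letter set term, the O to S set alone and the length and GC correction. Over all genes those fits called 1097 to 1794 higher and 1179 to 1729 lower, of 8670 to 19718 tested. The number of members called higher ran from 20 to 30 when single libraries were left out, with 14 to 21 for the large and 6 to 9 for the small subunit and medians of 0.33 to 0.44 and 0.32 to 0.43. In those fits 20 of the 24 calls held throughout, and the calls of Mrps22, Mrps34, Mrpl21 and Mrpl40 were lost in 10, 9, 7 and 4 of the 13 fits. The length and GC correction lost Mrpl21, Mrpl32, Mrps22 and Mrps34. Mrpl14 was called lower, as 1 member, without Hyperoxia 2 and after the length and GC correction, and the range of that count over left-out libraries was 0 to 1.

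With the replicate number as a block, 13 members were called higher, 9 large and 4 small, and 718 genes higher and 626 lower overall. Same-numbered libraries did not deviate together (correlations of -0.33, 0.27, -0.24, -0.31, -0.07 and -0.14), so that the number does not pair them. In the B to M set alone 10 members were called, 7 large and 3 small, with 679 genes higher and 441 lower overall. That fit holds 8 libraries. In the O to S set alone the median was 0.54, with 0.51 for the large and 0.57 for the small subunit. Over all genes, single left-out libraries gave 1256 to 1934 genes higher and 1049 to 1699 lower.

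The median of all genes was -0.10 with library size alone and -0.16 on the deposited log values, where 42.7% and 38.8% of calls were higher, against 52.3% with TMM. Relative to those medians the members' median was 0.36 and 0.38. The large subunit's median on the deposited values was 0.18. The change in the log2 ratio of large to small was 0.06 by sums and -0.082 by mean log2 CPM, and the cause was not tested. Without the bases after the start, the YY1 motif was found in 5.88% of members' promoters, against 1.83% of all, a window with fewer bases.

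Signs reversed for 7 named genes that passed no threshold in the main fit. In the O to S set alone, Mrpl27 was at 0.13, Mrpl48 at -0.15, Mrps16 at 0.075, Mrps18c at 0.10, Mrps21 at 0.32 and Mrps25 at -0.0015. Mrpl48 was at -0.061 on the deposited values, -0.060 with library size alone, -0.052 with at least 10 counts in every library and -0.024 with a letter set term, and between -0.023 and 0.097 when libraries were left out, below 0 without Hyperoxia 1 or 5. Mrps18a was at -0.14 on the deposited values, -0.069 with the replicate block and -0.42 in the B to M set, and between -0.079 and 0.27 when libraries were left out, below 0 without Hyperoxia 4 or 6. With libraries left out, Mrps18c lay between -0.28 and 0.089 and Mrps25 between -0.047 and 0.45, and both turned without Hyperoxia 1. At this depth the 6 members with a normoxic median under 10 CPM carried SEs of 0.23 to 0.47.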
